A study of Rattus norvegicus with 4 samples.

Results

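The genes described here are 42 genes that mark the fibroblasts of the meninges or encode the extracellular matrix these cells lay down. They are a list of symbols, covering collagens, proteoglycans, matrix glycoproteins, insulin-like growth factor proteins, retinoid genes, transporters and secreted proteins. No measured value enters the list's rule, but the list was drawn up with earlier results of these data known, so its counts are not independent evidence. Of the 42 genes, 33 had a named probe among the 15443 genes named on the array, and 32 of these were well above background on all 4 arrays. The 9 with no probe matched by name were Lamb1, Nid1, Slc13a4, Lama2, Col12a1, Col4a2, Col6a1, Col5a2 and Col6a3, and they were not analysed here.

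The meninges are the membranes that wrap the brain, and their fibroblasts secrete fibrillar collagens and small leucine-rich proteoglycans, which space and bind collagen fibrils. The same cells make insulin-like growth factor 2, prostaglandin D2 synthase and the retinoic acid-producing enzyme encoded by Aldh1a2, and they carry transporters for organic anions and cations. Several of these proteins are also made elsewhere in the brain: Ptgds by oligodendrocytes, Sparc by astrocytes, Col4a1 and Lamc1 by vessels, and Igf2 and Igfbp2 by the choroid plexus, so that none of them alone identifies a fibroblast.

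RNA came from male rats picked out of 106 normal animals by their immobility in the forced swimming test, in which time spent motionless in water is read as depressive-like behaviour. The depressive group showed that behaviour and the control group had average scores, so both were normal rats exposed to the same test, and the labels give no drug, lesion, strain or age. The 4 groups were depressive and control cerebellum and depressive and control prefrontal cortex, each a single pool of equal RNA amounts of 4 rats on a single 1-colour Agilent array. Sampling is given as 1 week after the swimming test in all groups. All animals were perfused with cold saline before coronal slices 1 mm thick were cut, and the sources used here do not say whether the meninges were stripped from the slices. The slices are given as 9.8 to 10.8 mm of bregma for cerebellum and 3.2 to 4.2 mm for prefrontal cortex.

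With 1 array per group, no difference between depressive and control rats within a tissue has a replicate check, and the folds below describe these pools. A signal is given on a scale on which the 75th percentile of each array is 1000. The error of a log2 fold is a standard error (SE) between repeated spots. Its spot variance was pooled over probes of similar brightness, in 20 bins, and divided by the probe's number of spots. It is therefore not the probe's own spread, and genes of similar brightness can share it, also a gene with a single spot. That error leaves out all spread between animals. In pooled tissue RNA, fewer cells of a type and less RNA per cell cannot be told apart. Between 22201 and 23759 of 30367 probes were well above background per array. Tissue markers matched the labels: all 17 measured cerebellum markers were 2-fold or more higher in cerebellum in both states, and 12 of 16 cerebral cortex markers were 2-fold or more lower there. This rests on reading the scanner files by the deposited value table and the file names, since the file list links the control prefrontal cortex sample and the depressive cerebellum sample to each other's scans. Read as linked instead, the scan with the cerebellum marker Pcp2 at 34892 would count as control prefrontal cortex. The scan with Pcp2 at 199 would count as depressive cerebellum, so the tissue markers would no longer match the labels. The same arrays then give opposite folds for every gene named as higher in the next paragraph. Those values are printed with the dependence on processing.

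In the prefrontal cortex, 10 of the 33 measured genes (30.3%) were 1.5-fold or more higher in depressive than in control rats, against 202 of 12572 genes (1.61%) over the whole array. They were Fmod, Ptgds, Igf2, Ogn, Aldh1a2, Slc22a6, Col1a2, Igfbp2, Col3a1 and Col1a1, with folds of 2.11, 2.0, 1.94, 1.83, 1.82, 1.75, 1.74, 1.72, 1.64 and 1.63. A single gene, the cation exporter Slc47a1, was 1.5-fold or more lower (3.03% of the 33, against 1.11% of all genes). Serping1 and Crabp2 lay just under the threshold at 1.49-fold and 1.47-fold. The median log2 fold of the 33 genes was 0.25 and 24 of them were above 0, whereas the median of all genes was -0.01 and 5923 of 12572 were above 0. In the cerebellum 0 of 32 genes reached 1.5-fold in either direction, against 1.70% of all genes higher and 2.11% lower. There 23 of 32 genes were nevertheless above 0, with a median log2 fold of 0.08, whereas 4944 of 12680 genes were above 0 and the median of all genes was -0.03.

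**Figure D1:**
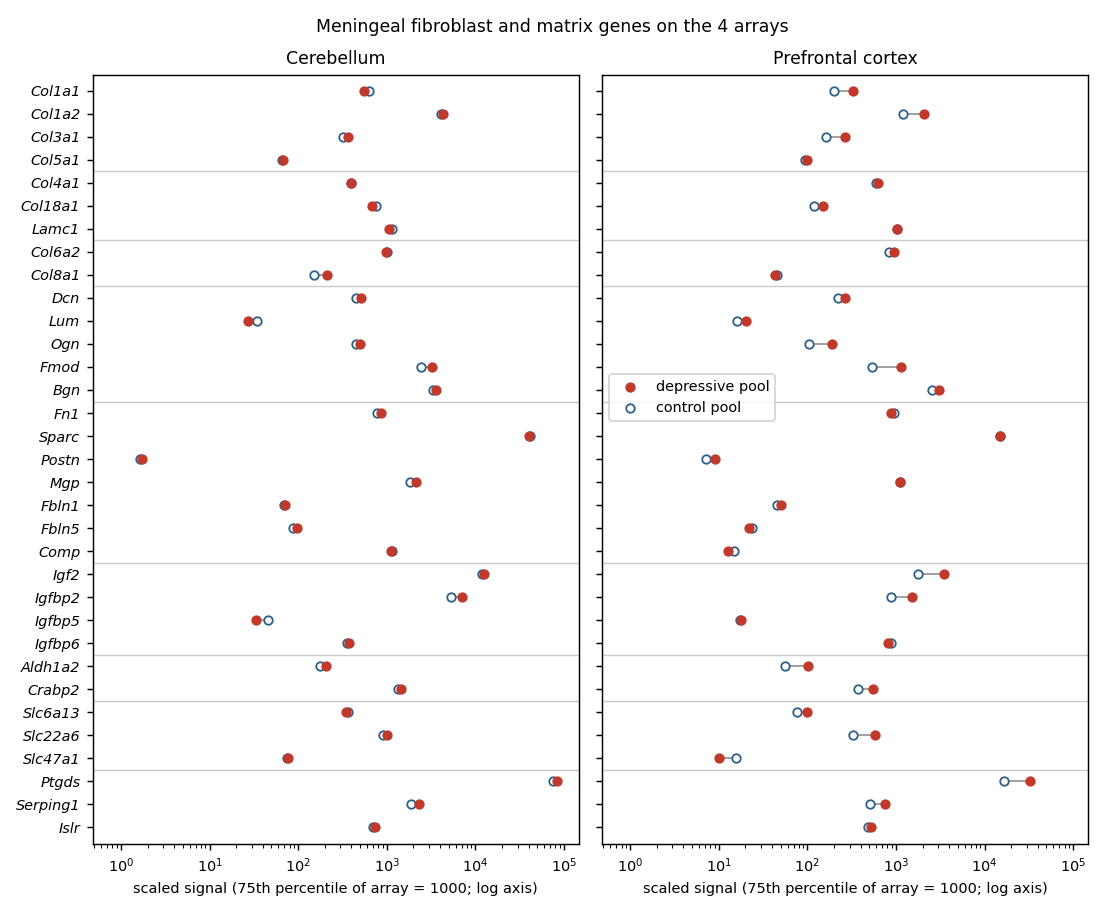
Scaled signal (log axis, 75th percentile of each array = 1000) of the 33 measured genes, with a filled point for the depressive pool and an open point for the control pool, in cerebellum (left) and prefrontal cortex (right); grey lines divide the genes by role. Fmod stands at 1139 in depressive against 540.5 in control prefrontal cortex, the widest gap among the genes that were higher there, while most cerebellum pairs lie close together.

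Fibrillar collagens form the tensile fibres of the membranes, and 3 of the 4 measured were past 1.5-fold in prefrontal cortex. Col1a2, the alpha 2 chain of type I collagen, had a scaled signal of 2093 in depressive and 1204 in control prefrontal cortex, and of 4271 in depressive and 4134 in control cerebellum. Its log2 fold was 0.80 ± 0.04 (pooled SE for 2 spots) in prefrontal cortex and 0.05 ± 0.03 in cerebellum. Both cerebellum pools thus lay above both prefrontal cortex pools, and the depressive prefrontal cortex pool stood between them and its control. Col1a1, its partner chain, had 326 in depressive and 200.2 in control prefrontal cortex, and 559 in depressive and 637 in control cerebellum. The log2 folds of Col1a1 were 0.71 ± 0.05 and -0.19 ± 0.04, so the order of the states was opposite in the tissues. A dimmer Col1a1 probe gave 0.47 in prefrontal cortex, under the threshold, and -0.10 in cerebellum. Col3a1, the type III chain that assembles with type I in extensible tissue, had 268 in depressive and 163 in control prefrontal cortex, and 366 in depressive and 324 in control cerebellum. Its log2 fold was 0.71 ± 0.05 in prefrontal cortex and 0.17 ± 0.05 in cerebellum. Col5a1, which starts the assembly of collagen I fibrils, differed from its fibril partners in both respects: it had 100.2 in depressive and 94.4 in control prefrontal cortex (log2 fold 0.09 ± 0.08), and 67.1 in depressive and 66.0 in control cerebellum.

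The small leucine-rich proteoglycans, which bind fibrils and limit their width, were above 0 in prefrontal cortex in 5 of 5 cases, and 2 passed 1.5-fold. Fmod (fibromodulin) had the largest log2 fold of the 33 genes, 1.08 ± 0.04, and stood at rank 50 of 12572 genes from the top. Its scaled signal was 1139 in depressive and 540.5 in control prefrontal cortex, and 3231 in depressive and 2424 in control cerebellum. Fmod was also among the largest cerebellum differences, with a log2 fold of 0.41 ± 0.03. Ogn (osteoglycin, or mimecan) had 192 in depressive and 105 in control prefrontal cortex, and 499 in depressive and 451 in control cerebellum, with log2 folds of 0.87 ± 0.06 and 0.15 ± 0.05. Dcn (decorin), a common fibroblast marker, had a smaller fold than either: 264 in depressive and 221 in control prefrontal cortex over 10 spots, a log2 fold of 0.25 ± 0.02. Bgn (biglycan) had a log2 fold of 0.25 ± 0.03 by its brightest probe and 0.56 by a second, dimmer probe. Lum (lumican) was dim, at 20.2 in depressive and 16.0 in control prefrontal cortex, and its log2 fold of 0.34 ± 0.22 was of the order of its spot error.

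Secreted growth factor and carrier proteins include the brightest of the genes that were higher. Ptgds, which makes prostaglandin D2 and is known also as beta-trace of the cerebrospinal fluid, had 32824 in depressive and 16413 in control prefrontal cortex, and 82921 in depressive and 75834 in control cerebellum. Its log2 fold was 1.00 ± 0.03 in prefrontal cortex and 0.13 ± 0.03 in cerebellum. Igf2, the insulin-like growth factor made by meninges and choroid plexus, had 3468 in depressive and 1784 in control prefrontal cortex, and 12644 in depressive and 11787 in control cerebellum. The log2 folds of Igf2 were 0.96 ± 0.03 and 0.10 ± 0.03. Igfbp2, a binding protein that holds Igf2 in the extracellular space, had 1524 in depressive and 887 in control prefrontal cortex, and 7009 in depressive and 5357 in control cerebellum. It was higher in the depressive pool of both tissues, with log2 folds of 0.78 ± 0.04 and 0.39 ± 0.03, and a second probe gave 0.81 and 0.38. The other binding proteins did not share this: Igfbp6 had 819 in depressive and 875 in control prefrontal cortex (log2 fold -0.10 ± 0.04). Igfbp5, dim at 18.0 and 17.5, had a log2 fold of 0.04 ± 0.22 there, and in cerebellum 33.6 in depressive and 45.5 in control rats (-0.44 ± 0.16). Serping1, the C1 inhibitor of the complement cascade, had 755 in depressive and 507 in control prefrontal cortex, and 2303 in depressive and 1899.5 in control cerebellum, with log2 folds of 0.57 ± 0.04 and 0.28 ± 0.03. Islr, a leucine-rich immunoglobulin-like protein of mesenchymal cells, had a single spot and a log2 fold of 0.08 ± 0.06 in prefrontal cortex.

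Retinoid genes and transporters mark these fibroblasts apart from the matrix they make, and 2 of the 5 measured were past 1.5-fold higher in prefrontal cortex. Aldh1a2, the enzyme that makes the retinoic acid of the meninges, had 102 in depressive and 56.1 in control prefrontal cortex, and 205 in depressive and 176 in control cerebellum, with log2 folds of 0.86 ± 0.09 and 0.22 ± 0.06. Crabp2, which carries retinoic acid to the nucleus, had 554 in depressive and 377 in control prefrontal cortex, and 1454 in depressive and 1352 in control cerebellum, with log2 folds of 0.56 ± 0.04 and 0.11 ± 0.04. Slc22a6, an organic anion transporter, had 577 in depressive and 330.2 in control prefrontal cortex, and 995 in depressive and 900.1 in control cerebellum, with log2 folds of 0.80 ± 0.04 and 0.15 ± 0.04. Slc6a13, a transporter of GABA and taurine, had 100.4 in depressive and 77.3 in control prefrontal cortex, a log2 fold of 0.38 ± 0.08. Slc47a1 ran the other way, with 10.2 in depressive and 15.5 in control prefrontal cortex. Its log2 fold of -0.60 ± 0.22 rested on spots at -0.93 and -0.27, and with normexp background correction it was -0.25, under the threshold. In cerebellum Slc47a1 had 77.2 in depressive and 75.1 in control rats, a log2 fold of 0.04 ± 0.10.

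Basement membrane genes and the remaining collagens lay under 1.5-fold in both tissues. Col18a1, whose cleavage gives endostatin, had 149 in depressive and 119.8 in control prefrontal cortex, and 691 in depressive and 764 in control cerebellum, with log2 folds of 0.32 ± 0.06 and -0.15 ± 0.04. Col4a1, the network-forming chain of vascular and pial basement membranes, had 621 in depressive and 594 in control prefrontal cortex, a log2 fold of 0.06 ± 0.04. Lamc1, the laminin gamma 1 chain, had 1031 in depressive and 1033 in control prefrontal cortex over 10 spots. Col6a2, of the beaded filaments around cells, had 957 in depressive and 842 in control prefrontal cortex, a log2 fold of 0.18 ± 0.04. Col8a1, a short-chain collagen, had the largest log2 fold in cerebellum, 0.49 ± 0.06, with 212 in depressive and 151 in control rats, while in prefrontal cortex it had 43.6 in depressive and 45.8 in control rats.

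Among the 7 matrix glycoproteins, 0 reached 1.5-fold in either tissue where they could be measured, and 2 of 7 were above 0 in prefrontal cortex. Sparc, which binds collagen and is abundant in astrocytes, had 14859 in depressive and 15085 in control prefrontal cortex. Fn1 (fibronectin) had 883 in depressive and 947 in control prefrontal cortex, and 859 in depressive and 772 in control cerebellum, with log2 folds of -0.10 ± 0.04 and 0.16 ± 0.04. Mgp, an inhibitor of matrix calcification, had 1105 in depressive and 1115 in control prefrontal cortex, and 2138 in depressive and 1842 in control cerebellum. Fbln1 and Fbln5, fibulins of the elastic fibres, had log2 folds of 0.13 ± 0.14 and -0.12 ± 0.17 in prefrontal cortex. Comp had 12.7 in depressive and 14.7 in control prefrontal cortex, and Postn (periostin) had 9.11 in depressive and 7.20 in control prefrontal cortex. Their log2 folds of -0.21 ± 0.22 and 0.34 ± 0.34 were no larger than about 1 SE between spots.

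**Figure D2:**
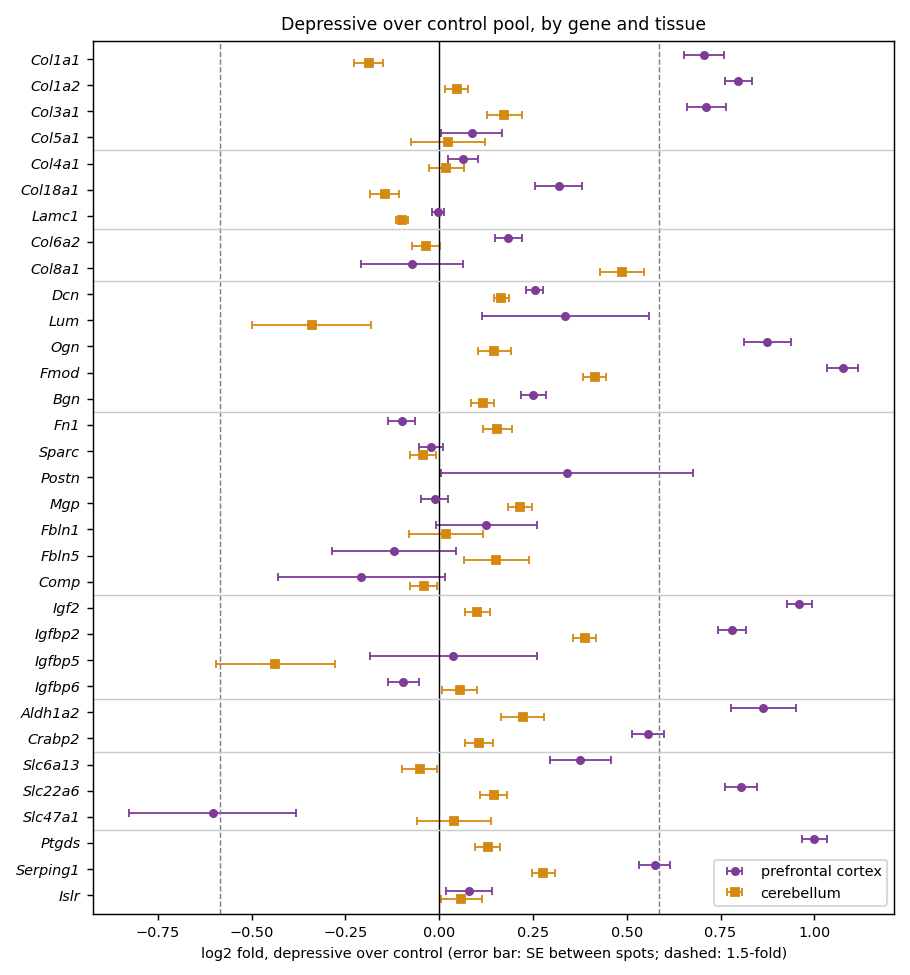
Log2 fold of depressive over control rats in prefrontal cortex (circles) and cerebellum (squares) for the 33 genes measured in prefrontal cortex, 32 of them also in cerebellum; bars are the SE between spots and dashed lines mark 1.5-fold. The 10 circles to the right of the upper dashed line run between 0.71 and 1.08, and no square passes either line.

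A limma test of state over both tissues, which takes tissue as the block and leaves 1 residual degree of freedom, called 0 of 32 genes and 0 of 11623 genes overall in either direction (0.00%). At an unadjusted p under 0.05 it listed 6 of the 32 genes and 904 of all genes, and the lowest Benjamini-Hochberg adjusted p among the 32 was 0.641 (Igfbp2, log2 fold 0.58 ± 0.12, SE of the fit). After normexp background correction the limma fit called 5 genes over the array and 0 of the 32. A fold shared by both tissues was therefore not detected with these 4 arrays. Across the 32 genes the folds of the tissues correlated with Pearson's r = 0.27 and Spearman's rho = 0.26, beside 0.20 and 0.18 across all 11623 genes; no array is shared between those folds, but genes are not independent replicates.

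The difference between the tissues' folds, prefrontal cortex minus cerebellum, was 0.89 for Col1a1, 0.87 for Ptgds, 0.86 for Igf2, 0.75 for Col1a2, 0.73 for Ogn, 0.68 ± 0.27 for the dim Lum (SE between spots), 0.66 for Fmod and for Slc22a6 and 0.64 for Aldh1a2. At the other end it was -0.64 for Slc47a1 and -0.56 for Col8a1. These differences have no test, since each rests on 4 arrays with no replicate.

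RNA levels also set the tissues apart. Of the 33 genes, 21 (63.6%) were 2-fold or more higher in cerebellum than in prefrontal cortex of control rats, against 9.82% of all genes, and in depressive rats 16 (48.5%) were, against 9.13%. Only Igfbp6 and Postn were 2-fold or more lower in cerebellum (6.06% in each state, against 14.1% of all genes in control and 14.5% in depressive rats). A limma fit of tissue took state as a block, so the states served as its replicates, with 1 residual degree of freedom. Its errors and p-values therefore do not measure spread between animals. In that limma fit 26 of 32 genes (81.2%) were higher in cerebellum at an adjusted p under 0.05 and 3 (9.38%) were lower. The shares of all 11623 genes were 34.7% and 38.0%. Col4a1, Col5a1 and Igfbp6 were the lower ones, and Lamc1, Col6a2 and Fn1 passed in neither direction. The tissue comparison in depressive rats and that in control rats use the same 4 arrays as the comparisons of state, so they carry the same differences seen from the other side.

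Comp, a cartilage matrix protein of the thrombospondin family, set the tissues furthest apart. Its scaled signal was 1114 and 1146 in depressive and control cerebellum, against 12.7 and 14.7 in depressive and control prefrontal cortex. That is an 87.4-fold difference in depressive and a 77.9-fold difference in control rats (limma log2 fold 6.37 ± 0.07, adjusted p = 0.000174). Col18a1 was 4.62-fold higher in cerebellum of depressive and 6.38-fold higher in cerebellum of control rats (limma adjusted p = 0.00102), and Igfbp2 4.60-fold and 6.04-fold (adjusted p = 0.00082). Igf2 was 3.65-fold higher in depressive and 6.61-fold higher in control rats (limma adjusted p = 0.00372). Ptgds was 2.53-fold and 4.62-fold higher in depressive and control rats, Fmod 2.84-fold and 4.49-fold, and Ogn 2.60-fold and 4.30-fold. Fbln5 at 4.51-fold and 3.73-fold, Col8a1 at 4.87-fold and 3.30-fold and Slc47a1 at 7.57-fold and 4.85-fold were instead further apart in depressive rats.

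Sparc had nearly the same tissue difference in both states, 2.70-fold higher in cerebellum of depressive and 2.74-fold higher in cerebellum of control rats. Igfbp6, a binding protein with preference for Igf2, was lower in cerebellum, with 370.4 and 357 in depressive and control cerebellum against 819 and 875 in depressive and control prefrontal cortex. Postn was not well above background on either cerebellum array, which puts it at least 2.62-fold lower there in depressive and at least 3.46-fold lower in control rats. Lamc1 was within 1.11-fold of equal between the tissues in both states.

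**Figure D3:**
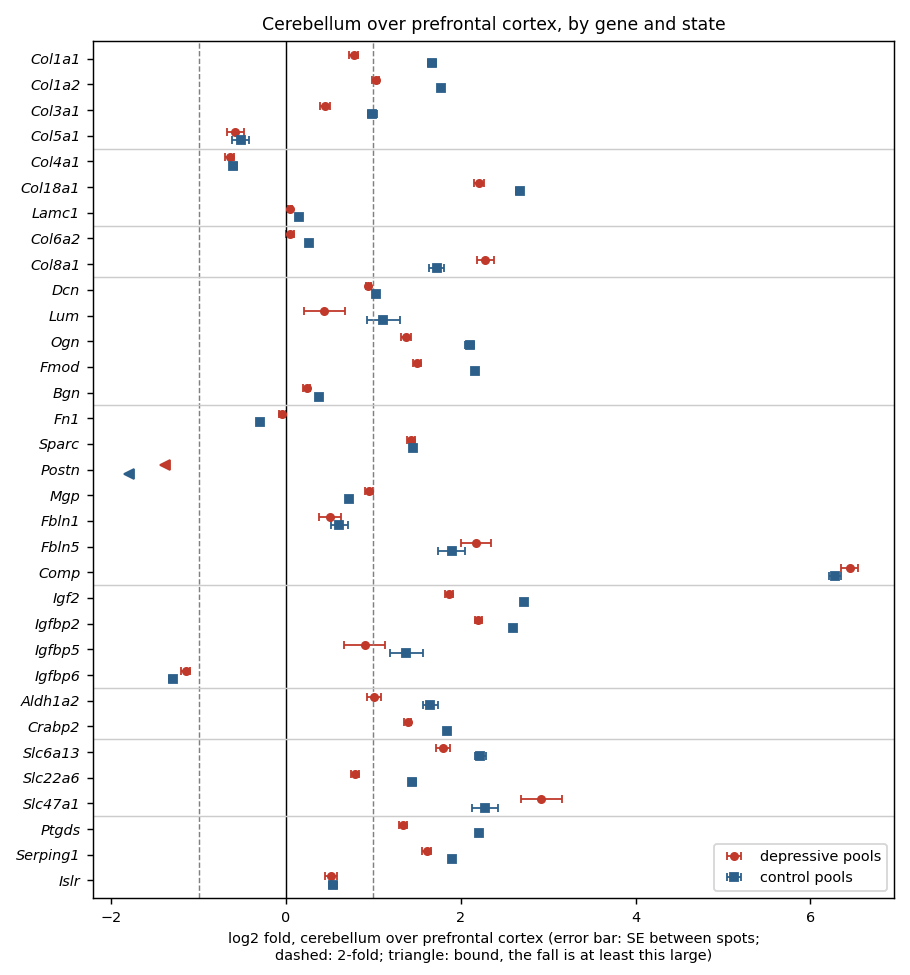
Log2 fold of cerebellum over prefrontal cortex for the 33 genes in depressive rats (circles) and control rats (squares); bars are the SE between spots, triangles mark bounds (Postn) and dashed lines mark 2-fold. Comp lies far to the right at 6.45 and 6.28, and 28 of 33 genes lie above 0 in each state.

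Other genes of the same tissue and pathway were read from lists that hold none of the 42 genes. Of 35 other meningeal fibroblast markers, 26 could be measured in prefrontal cortex, with 21 above 0, 6 past 1.5-fold higher and 0 past 1.5-fold lower, and a median log2 fold of 0.28. Those 6 were the transcription factors Twist1, Foxc2 and Osr1, the ligand Wnt6, the adhesion protein Cdh1 and the amino acid transporter Slc6a20a. Twist1 had 18.5 in depressive and 7.91 in control prefrontal cortex, and Wnt6 had 32.2 in depressive and 15.3 in control prefrontal cortex. Slc6a20a, the brightest of the 6, had 138 in depressive and 90.2 in control prefrontal cortex, 1.52-fold. With normexp background correction, an alternative added for these lists after seeing the data, 0 of the 6 reached 1.5-fold, and their log2 folds lay between 0.33 for Twist1 and 0.55 for Slc6a20a.

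Genes that process collagen did not follow the collagens as a group. Of 18 measured genes of collagen synthesis and crosslinking, 9 were above 0 in prefrontal cortex and the median log2 fold was -0.01. The exception was Pcolce, which enhances removal of the procollagen C-propeptide and had 1056 in depressive and 695 in control prefrontal cortex, 1.52-fold. Of 13 other collagens, Col26a1 passed 1.5-fold (78.8 in depressive and 51.2 in control prefrontal cortex), though not with normexp (log2 fold 0.42), and the median was 0.04. Of 25 elastic fibre and other matrix glycoprotein genes 18 were above 0, none passed 1.5-fold, and the largest log2 fold was 0.49 ± 0.06 for Omd, a proteoglycan related to Ogn. Of 21 proteases and inhibitors and 20 genes of the transforming growth factor beta axis, 0 passed 1.5-fold, with medians of 0.01 and 0.09. Of 13 matrix receptors 1 passed as a bound, the integrin Itga5, which was not well above background on the control array and had a log2 fold of 0.25 with normexp. The 12 other insulin-like growth factor genes ranged between -0.29 and 0.14, with Igf1 at 900 in depressive and 817 in control prefrontal cortex.

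Markers of other cell types also differed between the same pools, and their part in the results above was not tested. Of the 10 measured blood genes, 6 in prefrontal cortex and 7 in cerebellum were 1.5-fold or more higher in the depressive pool and 0 were lower by that much. The 10 genes summed to 22027 in depressive and 5681 in control prefrontal cortex, and to 13650 in depressive and 3039 in control cerebellum. Globin genes made up nearly all of these sums: the other 5 genes summed to 431 in depressive and 467 in control prefrontal cortex. In cerebellum those 5 summed to 124 in depressive and 94.6 in control rats. Alas2, one of the 5, was 2.06-fold higher in prefrontal cortex and 2.83-fold higher in cerebellum. Of the 10 genes, 1 was below 0 in prefrontal cortex and 2 in cerebellum. Hbb was 5.47-fold higher in prefrontal cortex and 7.52-fold higher in cerebellum. Choroid plexus genes summed to 3420 in depressive and 9651 in control prefrontal cortex, and Ttr carried that difference, at 1853 in depressive and 8221 in control rats, while the other 10 genes summed to 1566 in depressive and 1430 in control rats. Of 7 measured, 4 were lower by 1.5-fold or more, Otx2 as a bound, and with normexp only Ttr of these 4 was. The median log2 fold of the 7 was -1.0, with 3 above 0. Sostdc1, at 7.88 in depressive and 20.4 in control rats, and Folr1, at 10.8 and 21.6, were dim. Their falls thus weighed little in the sum of the other 10 genes. Aqp1 was 1.94-fold higher. In cerebellum the 11 choroid plexus genes summed to 185455 in depressive and 185396 in control rats, and 6 of them were 1.5-fold or more higher (4 with normexp). Ttr made up most of both sums, at 161651 in depressive and 169604 in control cerebellum. The other 10 genes summed to 23803 in depressive and 15793 in control cerebellum. The choroid plexus genes thus stood far higher in cerebellum, as Igf2, Igfbp2 and Ptgds did by smaller folds.

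Of the 8 measured genes of border-associated macrophages, which live among the meningeal fibroblasts, 3 were past 1.5-fold higher in depressive prefrontal cortex, Siglec1 (19.3 in depressive and 11.1 in control rats), Colec12 and, as a bound, Mrc1. With normexp 0 of the 3 reached 1.5-fold. Of the 8 genes, 6 were above 0 and 2 below 0 in prefrontal cortex. Pf4 was lower there, at 90.3 in depressive and 119 in control rats, a log2 fold of -0.40 ± 0.04. In cerebellum 3 of the 8 were above 0 and 5 below 0, with a median log2 fold of -0.08, and 0 passed 1.5-fold. All 12 myelin genes were above 0 in prefrontal cortex, with a median log2 fold of 0.30 and a largest value of 0.40 for Mog. Their sum was 158949 in depressive and 151133 in control rats. Endothelial, mural, astrocyte and neuron lists had medians of 0.08, 0.12, -0.02 and 0.06, and 0 of their measured genes passed 1.5-fold in prefrontal cortex. Cerebellum markers were mostly lower in the depressive prefrontal cortex pool: 4 of 14 passed 1.5-fold (3 with normexp), with Pcp2 at 84.5 in depressive and 199 in control rats. Ependymal genes had a median of -0.10 in prefrontal cortex and of 0.55 in cerebellum, where all 6 measured were above 0.

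**Figure D4:**
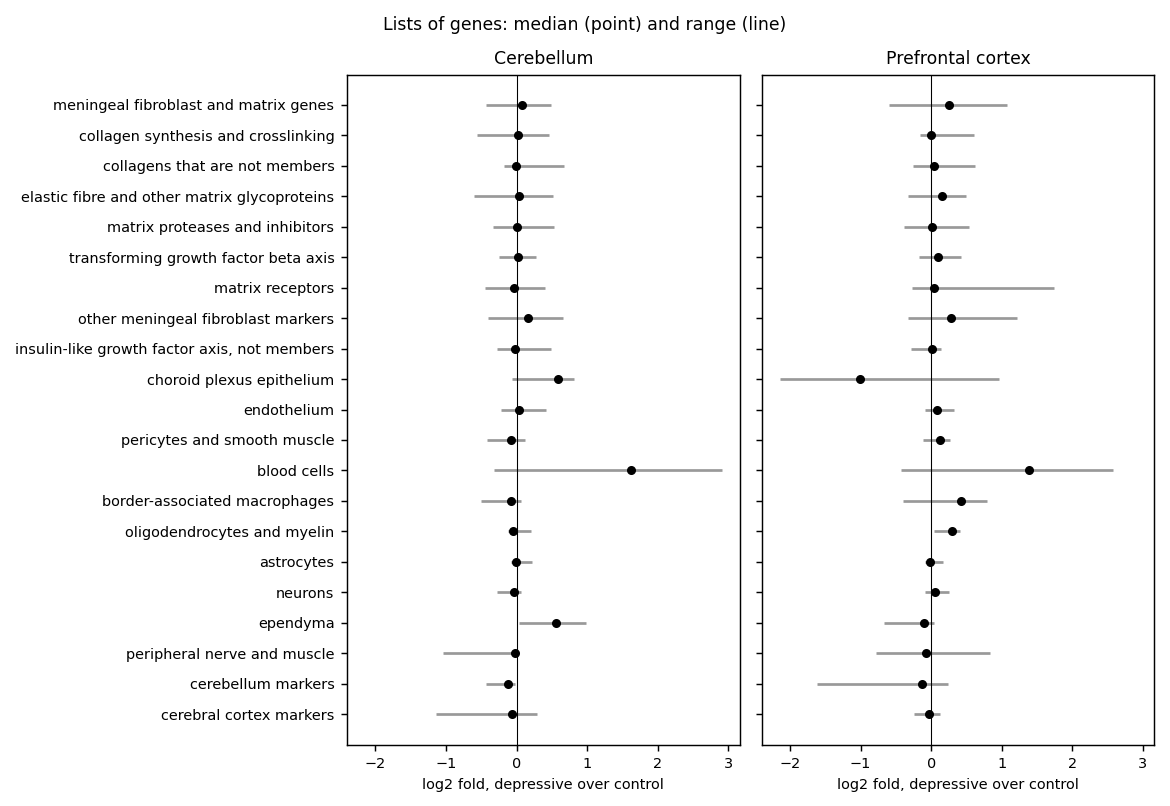
Median (point) and range (line) of the log2 fold of depressive over control rats for the meningeal fibroblast and matrix genes and for 20 other lists, in cerebellum (left) and prefrontal cortex (right). In prefrontal cortex the meningeal lists have medians of 0.25 and 0.28, blood cells 1.38 and choroid plexus epithelium -1.0.

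Promoter sequence is shown for 4 of the 10 genes higher in depressive prefrontal cortex, Fmod, Ptgds, Ogn and Col1a2, because these carry the largest folds or the fibrillar collagen result and have a single RefSeq entry each. Of the 42 genes, 29 had a promoter in the RefSeq table (build GRCr8), read here as the 250 bases before the annotated gene start. Each line gives the gene's strand 5′ to 3′, and capitals mark the TATA-box letters TATAAA, the CAAT-box letters CCAAT and the GC-box letters GGGCGG on either strand.
Fmod: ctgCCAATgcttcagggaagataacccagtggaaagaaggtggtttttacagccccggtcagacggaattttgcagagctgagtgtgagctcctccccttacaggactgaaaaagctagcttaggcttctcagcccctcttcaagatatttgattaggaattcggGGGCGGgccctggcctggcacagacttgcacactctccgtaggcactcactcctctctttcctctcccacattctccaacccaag
Ptgds: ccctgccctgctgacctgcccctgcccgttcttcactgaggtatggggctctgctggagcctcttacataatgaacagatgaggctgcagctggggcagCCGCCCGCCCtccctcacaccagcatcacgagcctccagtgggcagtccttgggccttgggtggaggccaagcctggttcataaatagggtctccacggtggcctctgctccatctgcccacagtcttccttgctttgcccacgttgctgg
Ogn: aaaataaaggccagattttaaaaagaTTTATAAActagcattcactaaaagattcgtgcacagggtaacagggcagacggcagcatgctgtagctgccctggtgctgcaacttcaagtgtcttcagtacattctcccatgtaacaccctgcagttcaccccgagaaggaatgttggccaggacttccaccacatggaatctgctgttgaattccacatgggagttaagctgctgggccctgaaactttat
Col1a2: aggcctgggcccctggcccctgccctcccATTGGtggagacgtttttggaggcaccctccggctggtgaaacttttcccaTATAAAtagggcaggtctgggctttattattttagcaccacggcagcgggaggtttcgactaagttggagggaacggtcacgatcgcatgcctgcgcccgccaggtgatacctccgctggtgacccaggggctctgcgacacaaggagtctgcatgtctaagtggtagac
Fmod lies at chr13:48045317-48045566 on the plus strand and Col1a2 at chr4:33518307-33518556 on the plus strand. Ptgds lies at chr3:28682979-28683228 and Ogn at chr17:15258996-15259245, both on the minus strand. TATAAA began at position -170 from the annotated start in Col1a2, and occurred as overlapping copies on the opposite strands in Ogn. CCAAT stood in Fmod and, reversed, in Col1a2, and GGGCGG stood in Fmod and, as overlapping reversed copies, in Ptgds. Of 33469 promoters of this length in the table, 12.9% held TATAAA, 34.0% CCAAT and 30.5% GGGCGG. Among the 29 genes with a promoter, 4 held TATAAA, 9 CCAAT and 16 GGGCGG, and among the 7 of the 10 higher genes that had a promoter these numbers were 2, 3 and 4. A match of letters is a description of the sequence and says nothing of a factor's binding.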

How the data were processed

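Groups follow the source name, which the title and characteristics match; the descriptions of the depressive pair give the opposite tissue. Intensity per spot was deposited from Agilent Feature Extraction 10.7.1.1 (protocol GE1_107_Sep09, design build rn4), with background subtracted, per the file headers. Each column of the deposited value table was correlated with each scanner file: best r was 0.9998, 0.99977, 0.99994 and 0.99994, but the scans linked to the samples of control prefrontal cortex and of depressive cerebellum matched each other's columns (0.933 and 0.935 with their own). The table and the file names were followed. Outlier-flagged and control spots were left out, log2 intensity was averaged over spots and each array's 75th percentile subtracted (4369.5 for depressive and 4020 for control cerebellum, 3278 for depressive and 3116 for control prefrontal cortex). A probe was well above background where 50% or more of its spots were flagged so. Where that held on a single array of a pair, a bound is given, set by the dim probe's own signal or, if higher, by the lowest signal well above background on that array. A gene took its brightest probe. RefSeq accessions named 18355 of 30367 probes through a GRCr8 table. All 42 genes are named, and of other lists up to 4 genes with the largest fold per tissue, Ttr, Hbb and Pcp2. Foxc2, Slc6a20a, Itga5, Otx2 and Mrc1 were named beyond this rule after their values were seen, to complete small counts. Alas2 was named in the same way, as a higher blood gene other than a globin. Members, lists and thresholds (1.5-fold for state, 2-fold for tissue) were chosen with earlier results of these data known. R 4.3.3 with limma 3.58.1 fitted 11623 genes well above background on all 4 arrays, with Benjamini-Hochberg adjustment. The fit was run on simulated data with the same state effect in both tissues, which does not test it for folds that differ between tissues. No gMeanSignal column was found, so normexp (offset 50) used the median signals. The other alternatives were median scaling, quantile normalization, mean over probes, the stricter filter, the value table and files as linked.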

Additional observations from a re-analysis of the deposited data

Results flagged for a closer look

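Opposite directions in the tissues, each beyond 2 SE between spots, drew attention to 3 genes, and the difference between the tissues was not tested. Col1a1 had a log2 fold of depressive over control of 0.71 in prefrontal cortex and -0.19 in cerebellum. Col18a1 had 0.32 in prefrontal cortex and -0.15 in cerebellum. Fn1 had -0.10 in prefrontal cortex and 0.16 in cerebellum, and its dimmer probe had 0.06 and -0.16, the opposite order.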

How the results depend on the processing

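No paired analysis was possible because the labels give no replicate numbers and each group is 1 array. Under 6 of 7 alternatives, all but the reading of files as linked, the count of genes 1.5-fold or more higher in depressive prefrontal cortex was 10, and both cerebellum counts and the state calls of the limma fit were 0, while its tissue calls lay between 28 and 31. Exceptions under those 6 were the lower count in prefrontal cortex, 0 after normexp, the median log2 fold there, 0.32 with the mean over probes, and the 2-fold lower count in cerebellum, 1 in each state after normexp and with the filter on all 4 arrays. Of the 10 higher genes, Col1a1 lay only just past 1.5-fold with the mean over probes (log2 fold 0.586). Col3a1 did so after normexp (log2 fold 0.595). Those 6 alternatives all process the same 4 scans, so their agreement says nothing of the spread between animals. Some could change little: the filter on all 4 arrays kept 32 of the 33 genes. The mean over probes could change only the 6 genes with 2 or more probes. Read with files as linked, each state comparison sets a cerebellum array against a prefrontal cortex array. It then gave 3 genes higher and 21 lower in prefrontal cortex (median -0.95), 3 higher and 24 lower in cerebellum (median -1.45), 29 state calls and 0 tissue calls. The 2-fold counts of tissue became 0 higher in each state, and 1 lower in depressive and 0 lower in control rats. The log2 fold in prefrontal cortex turned to -0.78 for Col1a1, -1.03 for Col1a2, -0.45 for Col3a1, -1.38 for Ogn, -1.50 for Fmod, -1.87 for Igf2, -2.20 for Igfbp2, -1.01 for Aldh1a2, -0.79 for Slc22a6 and -1.34 for Ptgds. The number of arrays limits the precision, and dim genes moved with normexp: of the other meningeal fibroblast markers past 1.5-fold higher in prefrontal cortex, 6 became 0, and of the border-associated macrophage genes 3 became 0.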
